A study of Mus musculus with 10 samples.

Results

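Blood vessel endothelial genes were followed in islets of Langerhans from 5-week-old female mice. The set holds 36 genes named as endothelial markers. Its members were every probe set (a group of short array sequences read as 1 value) whose annotation gives 1 of these symbols alone. Of the 36 genes, 35 had such a probe set, 64 probe sets in all. The values came from islets of 5 mice heterozygous for Men1, the gene of the tumour suppressor menin, and 5 wildtype littermates, all on the strain described as C57 on a 129 background. About 100 islets were pooled per mouse, so the replicates are separate mice. The labels give neither the Men1 allele nor a treatment.

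Islet endothelium forms a dense net of fenestrated capillaries, through which hormones reach the blood and which beta cells maintain by secreting vascular endothelial growth factor. ETS factors such as Erg, Fli1 and Ets1 and the SoxF factors Sox7, Sox17 and Sox18 maintain endothelial gene expression. Endothelial cells are joined by cadherin and claudin junctions, bind leukocytes through Icam1 and Icam2, and read the blood through receptors for angiopoietins, apelin, adrenomedullin and sphingosine phosphate.

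Each RNA sample was run on 1 array, and the deposited values are log2 intensities made by GCRMA, 1 per probe set. The tests took in probe sets whose value exceeded 4 in 5 or more of the 10 samples, which kept 18567 of 45037 probe sets. Of the endothelial probe sets 49 were kept, for 34 genes, and each gene is described by its brightest kept probe set unless another is named. In 31 of the 34 genes that probe set was above 4 on all 10 arrays. Array medians were 3.28 to 3.40, and pairs of arrays correlated at r = 0.962 to 0.988. Men1 itself had 6.82, 6.09, 6.56, 6.44 and 6.16 in heterozygous islets, against 7.21, 7.18, 6.83, 6.96 and 6.25 in wildtype islets. That difference was -0.47 (SE 0.20; limma adjusted p = 0.9999), and the labels do not say whether the allele alters the region this probe set reads. Lymphocyte transcripts were high in heterozygous replicates 2 and 5, with a mean over 6 measured markers of 7.67 and 7.04, where the other 8 arrays had 5.02 to 5.80.

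Endothelial transcripts were present in every sample. The junction cadherin gene Cdh5, the receptor kinase gene Tie1, and Kdr, Flt1 and Tek, which encode receptors for vascular growth factors and angiopoietins, were all kept. Pecam1, which encodes the junction protein CD31, was an exception, since its 1 named probe set lay at background, at 2.55 to 2.63 in heterozygous islets and 2.54 to 3.01 in wildtype islets. Ly6c1, a surface protein gene of capillary endothelium and of leukocytes, is reported by a probe set shared with Ly6c2, and its level was not analysed here. Sox7 and S1pr1 were close to background, with 3 of 5 heterozygous and 3 of 5 wildtype arrays above 4 for Sox7, and 3 of 5 and 4 of 5 for S1pr1. Robo4 was also near 4, at 3.62 in heterozygous replicate 3 and 4.13 to 5.51 in the other mice. The value of 4 served for all probe sets, but some were nearly level above it. Hey1, an endothelial gene outside the set, had 6.14 to 6.15 in heterozygous islets (SD 0.00371) and 6.13 to 6.48 in wildtype islets. A value above 4 therefore need not mean that a transcript was detected. Whether members level off likewise was not tested. Erg, for example, had 5.51 to 5.72 in heterozygous islets (SD 0.0757) and 5.32 to 7.04 in wildtype islets (SD 0.69). Gpihbp1 had 4.35 to 4.56 in heterozygous islets (SD 0.0877) and 4.51 to 5.37 in wildtype islets (SD 0.363).

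In heterozygous islets 32 of the 34 genes were lower and 2 were higher, with a median difference of -0.36 on the log2 scale, or 0.778 of the wildtype level. All 10538 genes tested, taken with 1 probe set each, had a median difference of 0.0143, and 45.6% of them were lower. By limma with Benjamini-Hochberg adjustment over all 18567 probe sets, 0 of the 49 endothelial probe sets were called at 0.05, where 0% of all probe sets were (0 of 18567). Unadjusted, 11 of the 49 were lower at p under 0.05 and 0 higher, where 1.52% and 2.57% of all probe sets were. By gene, 9 of 34 were lower at an unadjusted limma p under 0.05 and 0 higher, where 1.86% and 1.81% of all genes tested were. The 9 were Cd34, Egfl7, Esam, Ets1, Icam1, Icam2, Sox17, Sox18 and Tm4sf1. In 0 of the 34 genes did all heterozygous mice lie below or above all wildtype mice, which held for 0.19% and 0.361% of all genes tested. In whole islets, fewer endothelial cells and less RNA per endothelial cell cannot be told apart.

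**Figure D1:**
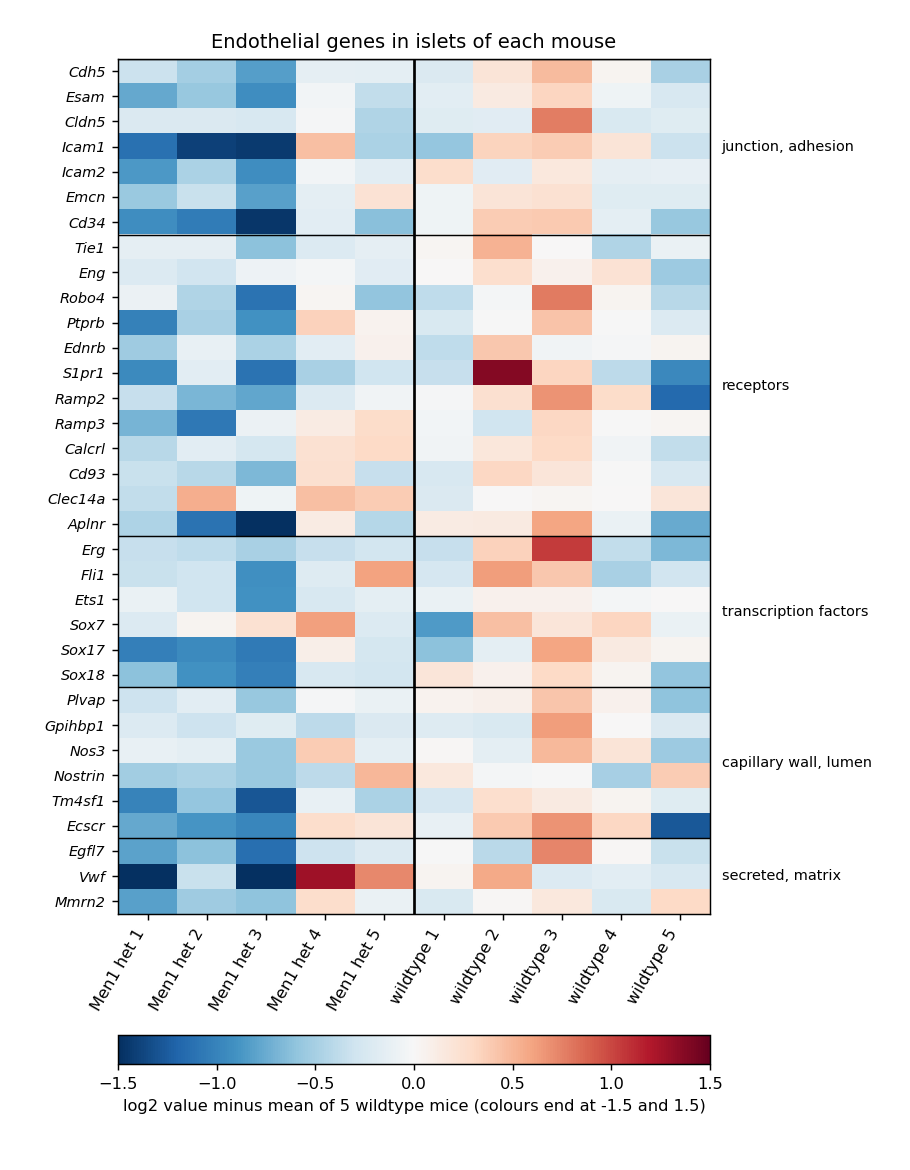
Values of the 34 kept endothelial genes in each mouse, as log2 value minus the mean of the 5 wildtype mice, with rows grouped by role and heterozygous (het) mice left of wildtype mice. Heterozygous replicate 3 has the lowest value of all 10 mice in 19 genes, wildtype replicate 3 the highest in 20, and heterozygous replicate 4 lies near the wildtype mean.

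The mice differed widely within each genotype. The mean over the 34 genes was 6.58, 6.70, 6.38, 7.20 and 7.08 in heterozygous replicates 1 to 5, against 7.02, 7.35, 7.53, 7.12 and 6.85 in wildtype replicates 1 to 5. Heterozygous replicates 1, 2 and 3 were below every wildtype mouse by this mean, and heterozygous replicates 4 and 5 lay inside the wildtype range. Heterozygous replicate 3 was below the lowest wildtype mouse in 24 of the 34 genes, heterozygous replicate 1 in 18, and heterozygous replicate 2 in 19. In heterozygous replicate 5 this held for 7 genes, and in heterozygous replicate 4 for 2. Without heterozygous replicate 4 the median difference was -0.45, with 13 genes lower at an unadjusted limma p under 0.05. Without wildtype replicate 3, the mouse with the highest endothelial mean, it was -0.27, with 4 such genes. Without heterozygous replicate 1 or 3 there were 5 such genes in each case. Leaving out 1 mouse moved the difference by over 1.5 times in 24 of the 34 genes, Egfl7 and Ets1 among them, and in the other 10 (Cdh5, Esam, Icam1, Icam2, Cd34, Cd93, Sox17, Sox18, Tm4sf1 and Mmrn2) it did not.

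Junction and adhesion genes were lower throughout, in all 7 genes kept, with a median difference of -0.50. Cd34, a sialomucin of endothelium that fibroblasts and blood progenitors also carry, had 7.75, 7.64, 7.23, 8.53 and 8.06 in heterozygous islets, against 8.62, 9.07, 9.08, 8.54 and 8.11 in wildtype islets. Here 4 of 5 heterozygous mice lay below every wildtype mouse, and replicate 4 lay inside the wildtype range. The difference was -0.84 (SE 0.253; limma adjusted p = 0.9999). Esam, a tight junction protein of endothelium and platelets, had 8.47, 8.67, 8.30, 9.19 and 8.87 in heterozygous islets, against 9.08, 9.37, 9.56, 9.17 and 8.99 in wildtype islets. Again, of the heterozygous mice, replicate 4 alone reached the wildtype range, and the difference was -0.53 (SE 0.174; limma adjusted p = 0.9999).

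Among the leukocyte adhesion genes, Icam1, which inflammatory signals induce, had 4.61, 4.33, 4.30, 6.18 and 5.26 in heterozygous islets, against 5.15, 6.06, 6.11, 5.92 and 5.41 in wildtype islets. Heterozygous replicate 4 exceeded every wildtype mouse in Icam1, while heterozygous replicates 1, 2 and 3 were below all of them, and the difference of -0.79 had an SE of 0.354. Icam2, its constitutive relative, had 5.89, 6.28, 5.82, 6.72 and 6.60 in heterozygous islets, against 7.02, 6.59, 6.92, 6.62 and 6.63 in wildtype islets. Its difference was -0.50 (SE 0.187), and both genes had a limma adjusted p of 0.9999. The cadherin gene Cdh5 differed by -0.39 (SE 0.193), the sialomucin gene Emcn by -0.33 (SE 0.183) and the tight junction gene Cldn5 by -0.23 (SE 0.187). In Cldn5 the 5 heterozygous mice lay at 5.90 to 6.34 and 4 of the 5 wildtype mice at 6.13 to 6.19, with wildtype replicate 3 alone at 7.12.

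**Figure D2:**
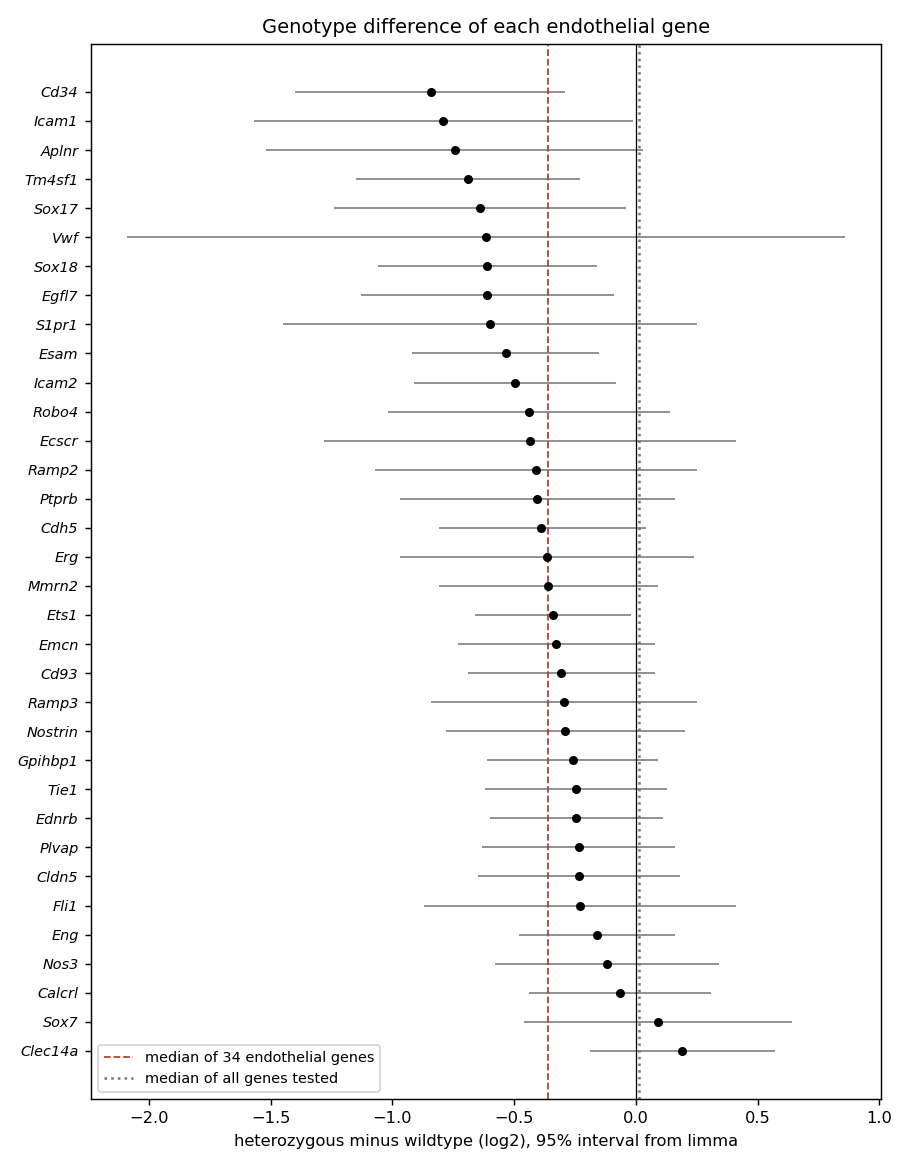
Heterozygous minus wildtype difference of each kept endothelial gene on the log2 scale, with the 95% interval from limma (5 mice per genotype). The points run from -0.84 for Cd34 to 0.19 for Clec14a, and the dashed line marks their median of -0.36 beside the dotted median of all genes tested at 0.0143.

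Of the 12 receptor genes 11 were lower, with a median difference of -0.30 and 0 below an unadjusted limma p of 0.05. Aplnr, the receptor for apelin, had 8.08, 7.44, 6.72, 8.67 and 8.12 in heterozygous islets, against 8.67, 8.68, 9.14, 8.44 and 7.79 in wildtype islets. Its groups overlapped and the difference was -0.74 (SE 0.352). A dimmer Aplnr probe set, at 5.13 over all arrays, differed by -0.07 and was correlated with the brighter one at r = -0.26. The sphingosine phosphate receptor gene S1pr1, which lymphocytes also express, differed by -0.60 (SE 0.384), with wildtype replicate 2 alone at 5.91 and the other 4 wildtype mice at 3.57 to 4.86. Robo4, a guidance receptor that stabilises vessels, differed by -0.44 (SE 0.264), and the phosphatase gene Ptprb, whose product restrains angiopoietin receptors, by -0.41 (SE 0.257). The endothelin receptor gene Ednrb and the receptor kinase gene Tie1 differed by -0.24 (SE 0.160) and -0.25 (SE 0.170). Eng, a co-receptor for TGF-beta ligands, differed by -0.16 (SE 0.146) in its brighter probe set and -0.40 in its dimmer one.

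Calcrl pairs with Ramp2 or Ramp3 to form the adrenomedullin receptors, and the differences of the 3 genes had overlapping intervals. Calcrl had 8.49, 8.75, 8.64, 9.14 and 9.21 in heterozygous islets, against 8.86, 9.08, 9.21, 8.85 and 8.54 in wildtype islets. The heterozygous values of Calcrl spanned the wildtype range, and the difference was -0.06 (95% interval -0.44 to 0.31). Probe sets that report both Ramp2 and Vps25 were not analysed. Ramp2 differed by -0.41 (SE 0.301, interval -1.07 to 0.25) and Ramp3 by -0.29 (SE 0.246, interval -0.84 to 0.25), and their difference from Calcrl was not tested. Their ligand gene Adm differed by -0.42 (SE 0.183). Adm had 3.95 to 4.10 in heterozygous islets and 3.93 to 5.07 in wildtype islets, near the filter value of 4.

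Cd93 and Clec14a encode related lectin-like receptors that bind multimerin-2, the product of Mmrn2. Cd93 differed by -0.31 (SE 0.176) and -0.57 in its 2 brighter probe sets, and another near background differed by 0.02. Clec14a gave opposite signs from its 2 probe sets. The brighter had 6.93, 7.84, 7.23, 7.75 and 7.68 in heterozygous islets, against 7.08, 7.30, 7.33, 7.30 and 7.48 in wildtype islets, a difference of 0.19 (SE 0.174). The dimmer had 6.58, 6.70, 6.35, 7.40 and 7.37 in heterozygous islets, against 7.34, 6.86, 7.53, 6.99 and 6.70 in wildtype islets, a difference of -0.21. The 2 were correlated at r = 0.24 over the 10 mice, so that the direction of Clec14a depends on the probe set taken.

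The endothelial transcription factors were lower in 5 of 6 genes, with a median difference of -0.35. Sox18, a SoxF factor of early vessels, had 7.31, 7.01, 6.90, 7.68 and 7.64 in heterozygous islets, against 8.10, 7.99, 8.22, 7.96 and 7.33 in wildtype islets. Every heterozygous mouse was below 4 of the 5 wildtype mice, wildtype replicate 5 being the exception, and the difference was -0.61 (SE 0.202). Sox17, a SoxF factor of arteries, had 5.04, 5.11, 5.01, 6.16 and 5.81 in heterozygous islets, against 5.45, 5.92, 6.66, 6.20 and 6.11 in wildtype islets. Its difference was -0.64 (SE 0.274), while its other kept probe set, at 4.61 over all arrays, differed by 0.02. Ets1, an ETS factor of endothelium and lymphocytes, had 7.96, 7.76, 7.15, 7.82 and 7.91 in heterozygous islets, against 7.96, 8.12, 8.13, 8.03 and 8.06 in wildtype islets. The difference was -0.34 (SE 0.146), and its other kept probe set gave -0.46. The limma adjusted p was 0.9999 for these 3 genes. Erg and Fli1 differed by -0.37 (SE 0.276) and -0.23 (SE 0.290), and Sox7 by 0.09 (SE 0.248). Erg stood at -0.11 without wildtype replicate 3, which had 7.04 where the other 9 mice had 5.32 to 6.34, and Fli1 at -0.05 without heterozygous replicate 3. Ets1 stood at -0.20 without heterozygous replicate 3.

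Among genes of the capillary wall and lumen all 6 kept were lower, with a median of -0.27. Tm4sf1, a membrane protein related to tetraspanins, had 9.50, 9.92, 9.22, 10.39 and 10.02 in heterozygous islets, against 10.25, 10.75, 10.64, 10.54 and 10.32 in wildtype islets. The difference was -0.69 (SE 0.207; limma adjusted p = 0.9999), with 4 of 5 heterozygous mice below every wildtype mouse. A second Tm4sf1 probe set gave -1.06 and was correlated with the first at r = 0.99. Plvap, which builds the diaphragms of fenestrae, had 10.14, 10.30, 9.89, 10.44 and 10.36 in heterozygous islets, against 10.51, 10.53, 10.87, 10.52 and 9.85 in wildtype islets. Wildtype replicate 5 had the lowest Plvap value of all, and the difference was -0.23 (SE 0.179). Nos3, the endothelial nitric oxide synthase gene, and Nostrin, whose product binds that enzyme, differed by -0.12 (SE 0.207) and -0.29 (SE 0.223). Gpihbp1, which holds lipoprotein lipase on capillaries, differed by -0.26 (SE 0.159), and Ecscr, a sprouting regulator, by -0.43 (SE 0.381).

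The secreted and matrix genes held the most variable member. Vwf, the clotting factor stored in endothelial granules, had 5.45, 7.66, 5.81, 9.26 and 8.71 in heterozygous islets, against 8.03, 8.56, 7.78, 7.83 and 7.75 in wildtype islets. The heterozygous mice lay on both sides of the wildtype range, with an SD of 1.70 against 0.337, and the difference of -0.61 had a 95% interval of -2.09 to 0.86. Egfl7, a secreted vessel protein, had 7.83, 8.02, 7.50, 8.32 and 8.43 in heterozygous islets, against 8.62, 8.22, 9.36, 8.65 and 8.30 in wildtype islets. The difference was -0.61 (SE 0.235; limma adjusted p = 0.9999), and its 4 kept probe sets gave -0.39 to -0.61. Without wildtype replicate 3 the difference of Egfl7 was -0.34. Mmrn2 differed by -0.36 (SE 0.202), and its 4 kept probe sets gave -0.15 to -0.40. Over all genes with more than 1 kept probe set, 7 of 10 had the same sign in each of them, the exceptions being Cd93, Clec14a and Sox17.

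**Figure D3:**
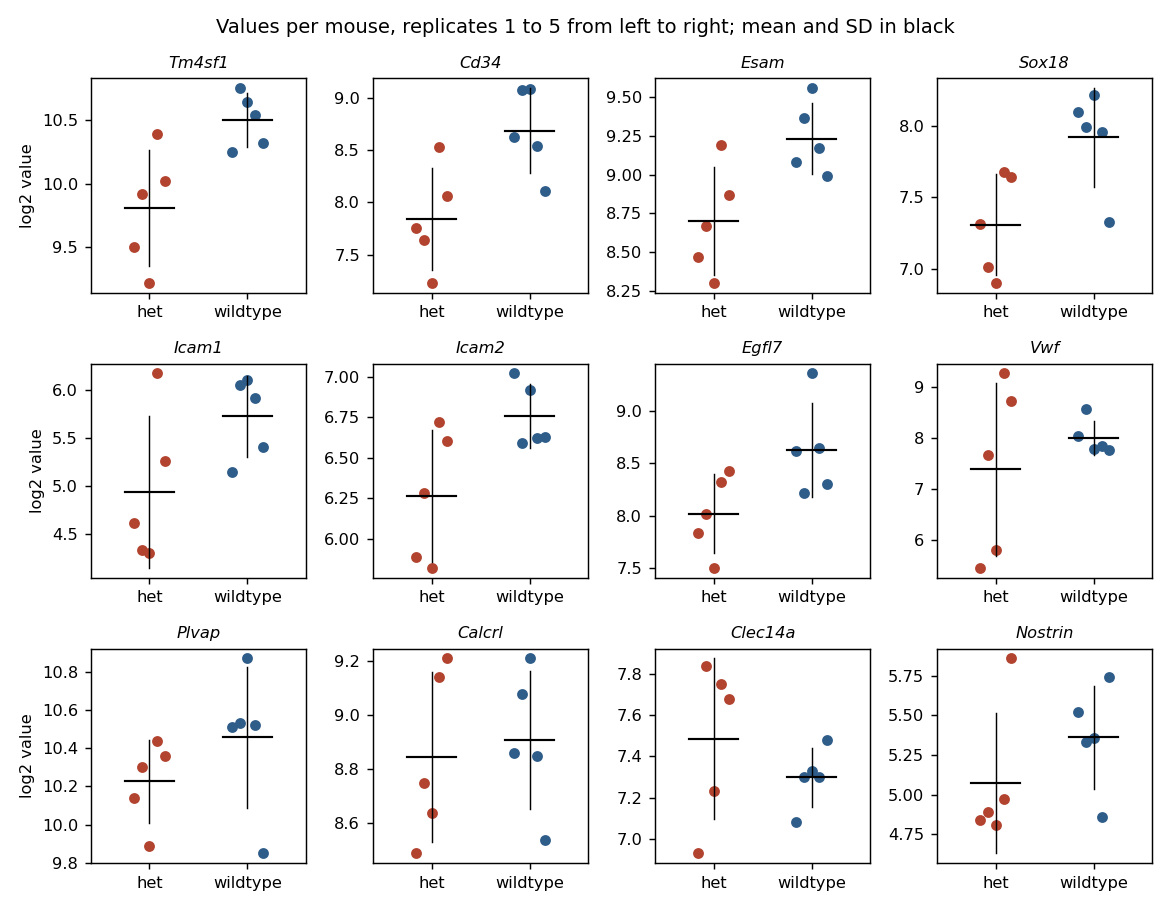
Log2 values of 12 endothelial genes in each mouse, heterozygous (red) left of wildtype (blue), replicates 1 to 5 from left to right within each group, with the mean and SD in black. In Tm4sf1, Cd34 and Esam only heterozygous replicate 4 reaches the wildtype range, and in Vwf the heterozygous mice spread from 5.45 to 9.26.

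The genes varied together over the mice. Each gene was set against the mean of the other 33 over the 10 mice, which share the preparation and the arrays, as a description without a test. The median Pearson r was 0.77 and the median Spearman rho 0.75. With genotype means removed the median r was 0.74, and without the 2 mice farthest from the median of that mean it was 0.68. Esam followed the rest most closely, at r = 0.97 (rho = 0.96; r = 0.98 with genotype means removed), then Cd34 at 0.94 (rho = 0.88) and Cdh5 at 0.93 (rho = 0.95). Over the 561 pairs of genes the median r was 0.52 with genotype means removed, and the closest pairs were Esam with Ptprb and Ramp2 with Ecscr, at 0.94 each. Calcrl, whose genotype means hardly differed, still followed the others within genotypes at r = 0.93.

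A few genes did not follow. By the limit of r = 0.3 with genotype means removed these were Nostrin (0.20) and Gpihbp1 (0.28), and the next was Sox7 (0.37). Nostrin had 4.84, 4.89, 4.81, 4.97 and 5.86 in heterozygous islets, against 5.52, 5.33, 5.36, 4.86 and 5.74 in wildtype islets. Its high mice were heterozygous replicate 5 and wildtype replicate 5, whose means over the 34 genes were 7.08 and 6.85. Gpihbp1 had 4.53, 4.43, 4.56, 4.35 and 4.52 in heterozygous islets, against 4.55, 4.51, 5.37, 4.74 and 4.52 in wildtype islets, all dim apart from wildtype replicate 3. Sox7 had 3.89, 4.13, 4.32, 4.71 and 3.89 in heterozygous islets, against 3.25, 4.54, 4.27, 4.42 and 3.99 in wildtype islets, with values on both sides of 4. As measured over the 10 mice the lowest r were those of Clec14a (0.14, rho = 0.28), Sox7 (0.23, rho = 0.48) and Nostrin (0.37, rho = 0.43). The dimmer Clec14a probe set followed the rest at r = 0.81. Eng was similar, at 0.54 in its brighter and 0.87 in its dimmer probe set.

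**Figure D4:**
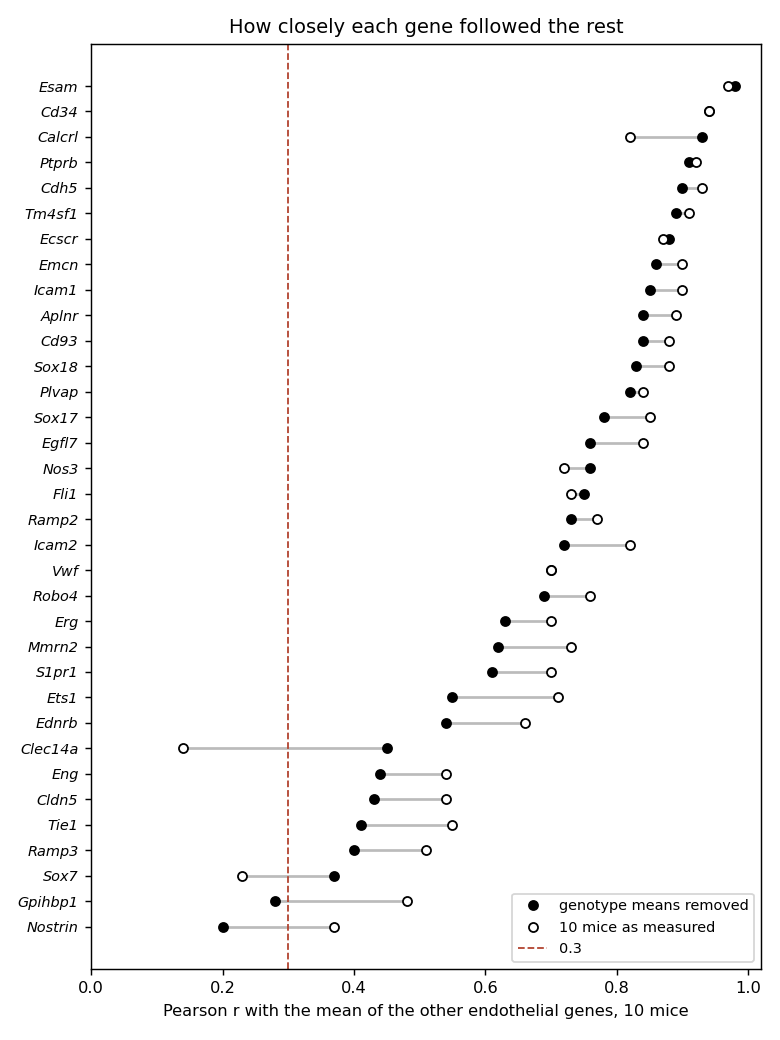
Pearson r of each endothelial gene with the mean of the other 33 over the 10 mice, with genotype means removed (filled) and as measured (open), and the limit of 0.3 as a dashed line. Esam, Cd34 and Calcrl stand at the top, and Nostrin and Gpihbp1 lie below 0.3 once genotype means are removed.

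Promoter sequence is given for a few members because genes for ETS and Sox factors are among the members and most members varied together. The RefSeq start sites used (build GRCm38.p6) numbered 21 and covered 16 of the 36 genes, Ly6c1 included. The remaining genes were not searched, so the percentages describe this part of the set. The 250 bases before each start were searched on both strands for the ETS motif AGGAAG and the Sox motif ACAAT. These motifs do not overlap each other, and only their exact letters were counted. The ETS motif was in 13 of the 21 windows (61.9%), against 29.5% of all 32851 windows, and the Sox motif in 6 of 21 (28.6%), against 27.7%. The windows of Tm4sf1 and Cd34 are shown as the 2 genes with the smallest p, and that of the first Egfl7 start for its 3 ETS motifs. Those of Icam1 and Clec14a are shown as genes without AGGAAG on either strand. Letters run 5′ to 3′ on the gene's strand, and capitals mark either motif on either strand.
Tm4sf1 (chr3:57301989-57302238, - strand): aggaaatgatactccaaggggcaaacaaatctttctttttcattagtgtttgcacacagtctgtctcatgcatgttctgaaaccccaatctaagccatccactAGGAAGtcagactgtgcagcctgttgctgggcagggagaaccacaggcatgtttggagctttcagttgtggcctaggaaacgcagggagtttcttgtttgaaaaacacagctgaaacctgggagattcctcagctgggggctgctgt
Cd34 (chr1:194938571-194938820, + strand): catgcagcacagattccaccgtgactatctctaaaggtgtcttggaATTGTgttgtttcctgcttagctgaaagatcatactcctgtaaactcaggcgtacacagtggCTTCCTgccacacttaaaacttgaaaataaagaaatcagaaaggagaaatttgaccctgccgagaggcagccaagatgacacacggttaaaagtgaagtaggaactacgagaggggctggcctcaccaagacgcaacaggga
Egfl7 (chr2:26580833-26581082, + strand): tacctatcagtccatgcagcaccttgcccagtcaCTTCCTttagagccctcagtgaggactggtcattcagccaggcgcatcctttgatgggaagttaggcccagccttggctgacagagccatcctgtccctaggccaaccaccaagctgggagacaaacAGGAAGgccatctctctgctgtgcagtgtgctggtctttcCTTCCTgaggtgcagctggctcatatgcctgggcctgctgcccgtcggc
Icam1 (chr9:21015690-21015939, + strand): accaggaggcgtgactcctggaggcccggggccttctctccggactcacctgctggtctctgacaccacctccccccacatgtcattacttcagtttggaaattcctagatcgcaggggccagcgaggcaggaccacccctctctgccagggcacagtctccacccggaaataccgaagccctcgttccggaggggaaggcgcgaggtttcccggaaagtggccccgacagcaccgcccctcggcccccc
Clec14a (chr12:58269259-58269508, - strand): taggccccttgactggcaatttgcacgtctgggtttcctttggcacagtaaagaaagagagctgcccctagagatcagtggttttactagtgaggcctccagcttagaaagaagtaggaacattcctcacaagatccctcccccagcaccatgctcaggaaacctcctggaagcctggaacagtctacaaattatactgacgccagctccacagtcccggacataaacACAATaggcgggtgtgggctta
Icam1, Cldn5, Ednrb and Clec14a had no AGGAAG on either strand in any window, and their differences between genotypes were -0.79, -0.23, -0.24 and 0.19. Other spellings of an ETS site were not searched, so these windows may hold some. Whether the differences vary with a match was not tested. A match describes the letters of a window and not binding.

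Other endothelial genes were counted from a list of 30, of which 26 were kept. Their median difference was -0.17, with 23 lower, 3 higher and 0 called by limma. Their mean correlated with that of the 34 genes at r = 0.95 (rho = 0.96) over the 10 mice. Kdr, the main receptor for vascular endothelial growth factor, had 9.27, 9.22, 9.20, 8.99 and 9.37 in heterozygous islets, against 9.05, 9.35, 9.32, 9.34 and 8.99 in wildtype islets. The groups lay over each other, and the 95% interval of the difference was -0.24 to 0.24. Flt1, the decoy receptor for the same ligand, had 7.50 to 8.12 in heterozygous islets, against 7.45 to 8.04 in wildtype islets (interval -0.35 to 0.34). The angiopoietin receptor gene Tek differed by -0.48 (SE 0.310) and the co-receptor gene Nrp1 by -0.04 (SE 0.120).

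The 2 genes of this list with the smallest p were Klf2 and Mmrn1. Klf2, a flow-responsive factor of endothelium and lymphocytes, had 8.08, 8.19, 8.21, 8.42 and 7.90 in heterozygous islets, against 8.59, 9.32, 9.71, 9.37 and 8.61 in wildtype islets. Its groups did not overlap, and the difference was -0.96 (SE 0.216; limma adjusted p = 0.9999). Mmrn1, a multimerin of platelets and lymphatic endothelium, had 3.69, 4.59, 3.74, 4.99 and 5.29 in heterozygous islets, against 5.24, 6.25, 7.38, 6.30 and 6.11 in wildtype islets, a difference of -1.79 (SE 0.411; adjusted p = 0.9999). Of 11 genes for vessel growth factors and peptides 7 were lower, and the median was -0.06. Vegfa, which beta cells secrete, had 9.68 to 10.21 in heterozygous islets, against 9.20 to 10.38 in wildtype islets, and Vegfc, the lymphatic growth factor gene, differed by -0.57 (SE 0.249). Of 6 kept lymphatic genes 5 were lower, and the median was -0.66. The exception was Prox1, the defining factor of lymphatic endothelium, which endocrine cells also express, at 0.61 (SE 0.199), whereas Flt4, the receptor for Vegfc, differed by -0.75 (SE 0.247). The guidance protein gene Reln and the hyaluronan receptor gene Lyve1, which some macrophages also express, differed by -0.88 (SE 0.239) and -1.07 (SE 0.336), and 0 genes of these lists were called.

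Markers of the cells around vessels varied with the endothelial genes. All 10 kept pericyte and smooth muscle genes were lower, with list means per mouse of 7.04 to 8.40 in heterozygous islets and 7.74 to 8.32 in wildtype islets, and summed linear levels of 3460 to 15600 in heterozygous islets against 6740 to 13100 in wildtype islets. The endothelial mean correlated with this list at r = 0.94 (rho = 0.94; 0.92 with genotype means removed). The pericyte gene Rgs5 differed by -0.33 (SE 0.190) and the adhesion gene Mcam, which endothelium also carries, by -0.45 (SE 0.239). Des and Cnn1 were removed by the filter. With genotype means removed, Vwf followed this list at r = 0.92, as Esam (0.95), Ptprb (0.94) and Tm4sf1 (0.94) did. Vwf followed the myeloid list at 0.90 and the fibroblast list at 0.72. It followed the mean of the other members of the set at 0.70, and the separate list of other endothelial genes at 0.63. The smooth muscle gene Acta2 had 9.83, 10.86, 10.44, 13.19 and 12.09 in heterozygous islets, against 12.19, 12.88, 12.07, 12.02 and 11.59 in wildtype islets, low in heterozygous replicates 1 and 3 and high in replicate 4 like Vwf. The part of pericytes and smooth muscle in the endothelial values was not tested.

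All 10 fibroblast genes were lower as well, with a median of -0.77, list means of 7.94 to 9.41 in heterozygous islets against 8.88 to 9.71 in wildtype islets, and summed levels of 7710 to 23100 against 15700 to 28100. Col3a1 and Dcn had the smallest p, at -1.08 (SE 0.314) and -0.64 (SE 0.191), with 0 of the list past the adjusted threshold. The endothelial mean correlated with this list at r = 0.85 (rho = 0.88; 0.77 with genotype means removed). With the fibroblast mean of each mouse as a covariate, 18 of the 34 endothelial genes were lower and 16 higher, with a median difference of -0.02, and Calcrl stood at 0.24 and Vwf at 0.87. Since fibroblast mean and genotype were themselves related (8.52 ± 0.545 in heterozygous against 9.28 ± 0.346 in wildtype islets, SD, n = 5 each), that fit does not separate them.

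Of 9 kept myeloid genes 6 were lower and 3 higher, with summed levels of 1140 to 2710 in heterozygous islets against 1750 to 2310 in wildtype islets. The 2 with the smallest p were Cd14 (-0.64, SE 0.203) and Mrc1 (-0.93, SE 0.310), and the filter removed Cd68, Itgam, Fcgr3, C1qc and Tyrobp. The endothelial mean correlated with the myeloid list at r = 0.85 (rho = 0.82; 0.81 with genotype means removed). The part of myeloid cells in the endothelial values was not tested. The 6 kept lymphocyte genes were all higher in their group mean, with the smallest p in Ms4a1 (1.03, SE 0.656) and Coro1a (0.77, SE 0.496). By list mean heterozygous replicates 2 and 5 were highest, at 7.67 and 7.04. Wildtype replicate 5 had 5.80, where the other wildtype mice had 5.16 to 5.23. Heterozygous replicates 1, 3 and 4 had 5.03, 5.13 and 5.02, below every wildtype mouse (5.16 to 5.80). Summed levels were 401 to 1830 in heterozygous islets against 475 to 571 in wildtype islets. The filter removed 8 listed genes, among them the T cell genes Cd3e, Cd3g and Cd3d and the B cell gene Cd79b. A gene high only in heterozygous replicates 2 and 5 would also fail the filter. The endothelial mean correlated with the lymphocyte list at r = -0.18 (rho = -0.09), and without heterozygous replicates 2 and 5 the median difference of the endothelial genes was -0.44, with 32 of 34 lower. Of the epithelial cells, 6 of 10 kept beta cell genes, 4 of 5 alpha cell genes, 9 of 9 acinar genes and 4 of 5 duct genes were lower. Their medians were -0.03, -0.16, -0.03 and -0.05, in that order. Acinar list means per mouse were high, at 15.54 to 16.01 in heterozygous islets and 15.76 to 15.97 in wildtype islets. Whether part of the endothelial RNA came from vessels outside the islets was not tested. The smallest p were those of Kcnj11 (-0.15) and G6pc2 (-0.18) among beta cell genes, Irx1 (-0.45) and Gria3 (0.24) among alpha cell genes, Cela2a (-0.04) and Cela1 (-0.05) among acinar genes, and Krt19 (-0.62) and Epcam (-0.14) among duct genes. Of 8 platelet and red cell genes 1 was kept, the platelet factor gene Pf4. It had 5.37 to 6.83 in heterozygous islets and 6.58 to 7.41 in wildtype islets. Ppbp, Itga2b, Gp9, Hba-a1 and Alas2 were removed by the filter. The endothelial mean correlated with the alpha cell mean at r = 0.57 (rho = 0.68; 0.42 with genotype means removed) and with the beta cell mean at r = 0.25 (rho = 0.18). With the acinar mean it correlated at r = -0.30 (rho = -0.39) and with the duct mean at r = 0.13 (rho = 0.02).

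**Figure D5:**
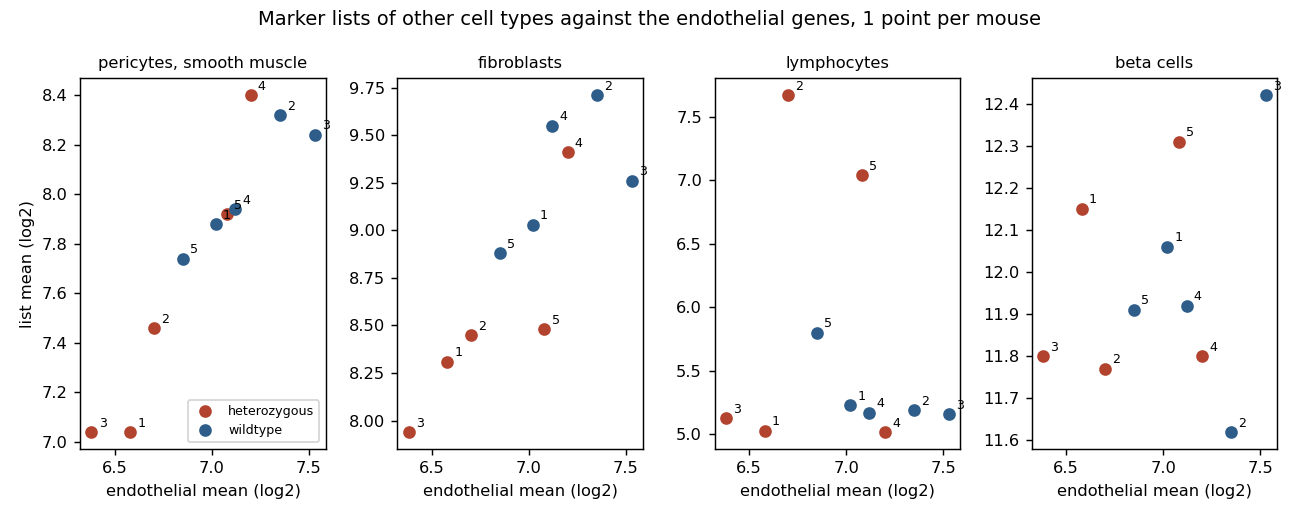
Mean log2 value of marker lists (pericytes and smooth muscle, fibroblasts, lymphocytes, beta cells) against the mean of the 34 endothelial genes in each mouse, heterozygous in red and wildtype in blue, numbered by replicate. The pericyte and smooth muscle list varies with the endothelial mean (r = 0.94), while heterozygous replicates 2 and 5 stand apart in the lymphocyte list.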

How the data were processed

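Per the labels' protocols, RNA of about 100 islets per mouse was isolated with a column kit, and 100 ng was amplified over 2 cycles to biotinylated cRNA. A repeated amplification loses 5′ ends and can widen the spread between small inputs. GCRMA produced the deposited log2 values, per the submitters' processing notes, with its version not given in the sources. That they are log2 follows from their range, 0.654 to 17.58. GCRMA pulls dim probe sets to a common low value.

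Probe sets were named through the platform annotation (34958 with 1 symbol, 932 with several and 9211 unnamed), and 64 of 64 endothelial probe sets matched RefSeq by gene identifier. After removal of 64 controls and the filter, genotypes were compared with limma 3.58.1 in R 4.3.3 (lmFit, eBayes, no covariates), p-values being two-sided and adjusted by Benjamini-Hochberg over all kept probe sets. The fit was tested on simulated data. The number of arrays limits the precision.

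Every member is named. All values are printed for members with the smallest p, the lowest correlation or a result that turned on them, the last chosen after values were seen. Of each other list the 2 genes with the smallest p are named, with Kdr, Flt1, Tek and Vegfa, and further genes were added after their values were seen. Members and lists were chosen with earlier results of these data known. Alternatives covered the filter, normalization, variance prior, array weights, the replicate number, single mice, probe sets per gene and 2 covariates. Figures used matplotlib 3.10.9 in Python 3.11.15.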

Additional observations from a re-analysis of the deposited data

Results flagged for a closer look

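In 6 of 68 groups of 5 mice, 1 mouse lay far from the other 4 (Dixon's test at 95%, where chance alone gives about 1 in 20 groups). In heterozygous islets these were Tie1 in replicate 3 (4.13, others 4.55 to 4.62), Ets1 in replicate 3 (7.15, others 7.76 to 7.96) and Nostrin in replicate 5 (5.86, others 4.81 to 4.97). In wildtype islets they were Cldn5 in replicate 3 (7.12, others 6.13 to 6.19), Gpihbp1 in replicate 3 (5.37, others 4.51 to 4.74) and Sox18 in replicate 5 (7.33, others 7.96 to 8.22). Heterozygous replicate 3 and wildtype replicate 3 also had the lowest and the highest mean over the 34 endothelial genes (6.38 and 7.53).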

How the results depend on the processing

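By limma at an adjusted p of 0.05, 0 probe sets were called in each setting run, endothelial or other; 760 of 18567 had an unadjusted p under 0.05. The median difference of the endothelial genes was -0.36 and stayed between -0.27 and -0.45 when single mice were left out, with 30 to 33 of 34 genes lower and a median correlation with the rest of 0.71 to 0.85. The stricter filter, a log2 value above 6, kept 22 endothelial genes, of which 21 were lower, fewer only because fewer were kept. With the fibroblast mean as a covariate 18 were lower and the median was -0.02. In that fit Icam1 (0.14), Eng (0.06), Robo4 (0.02), Ptprb (0.15), S1pr1 (0.03), Ramp2 (0.07), Calcrl (0.24), Cd93 (0.16), Aplnr (0.02), Fli1 (0.11), Plvap (0.07), Nos3 (0.29), Ecscr (0.39) and Vwf (0.87) turned positive, and the cause was not tested. Clec14a turned to -0.01 with the mean of its probe sets. Leaving out single mice turned Calcrl (-0.15 to 0.03), Nos3 (-0.26 to 0.00337) and Sox7 (-0.12 to 0.20). Of the 34 genes 18 kept their sign under all alternatives run. The labels do not state whether the replicate numbers pair the mice. Deviations of same-numbered mice correlated at -0.284 to 0.108, which does not decide this, since paired mice need not correlate over all probe sets. With the replicate number as a block the median was -0.36, with 0 probe sets called and 6 endothelial genes lower at an unadjusted limma p under 0.05. Quantile normalization gave -0.38, where the median of all genes moved to -0.00549.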
